A study of Homo sapiens with 4 samples.

Results

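The 29 genes described here make cholesterol, move it through the cell or control its supply, and they were chosen by symbol from a list arranged by step of the pathway. All 29 were found among the 28278 genes of the count table, and all 29 passed the filter on low counts that left 15150 genes for testing. The libraries were labelled as HepG2, a human hepatocellular carcinoma line, and the cells had been infected with lentiviruses carrying Cas9 and either a control sgRNA (control, 2 libraries) or a *USP22* sgRNA (sgUSP22, 2 libraries). The infected cells were kept as populations, with 1 sgRNA to *USP22*, and all received Sorafenib, a kinase inhibitor used against liver cancer, for 24 h, so the drug is common to both groups and no comparison here measures its effect.

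Cholesterol is built from acetyl-CoA. Mevalonate is made first and is activated to isoprenoid diphosphates, which are joined into squalene and closed to lanosterol, the first sterol. Enzymes of the endoplasmic reticulum then trim lanosterol to cholesterol. Supply is controlled by the SREBP transcription factors, which are held in the endoplasmic reticulum by the escort protein SCAP and the INSIG proteins when sterol is plentiful, and which travel to the Golgi, are cut and enter the nucleus when it is scarce. The liver is a main site of this synthesis.

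Total counts per library lay between 62030307 and 64728272, and replicate libraries were further apart than counting noise alone would place them (mean chi-square per gene of 8.11 in control and 8.51 in sgUSP22). The labels do not say that replicates were separate cultures, so the p-values measure the spread between these libraries, which may be technical. The RNA of the targeted gene was higher, not lower, in the libraries labelled *USP22* knockout. The paper reports that the efficiency of the knockout was checked by Western blot, which measures protein. Counts of RNA do not measure protein, so loss of the protein was not tested here. *USP22* had 16450 and 16537 counts in control and 20279 and 20368 in sgUSP22. Its log2 fold change was 0.22 (SE 0.034, adjusted p = 0.000394 in the edgeR test given below). Directions given below follow the labels. Of 24 hepatocyte markers, 20 had at most 25 counts in every library and 10 were listed at 0 in all 4, among them *ALB*, *APOA1* and *HP*, while *AFP* and *HNF4A* had 0 to 9 counts, so the hepatocyte markers went against the label. The summed level of the list, 1001 to 1042 CPM (counts scaled to a common library size, with TMM factors) in control and 1321 to 1351 in sgUSP22, was almost all *CPS1*, a urea cycle enzyme, which rose and lay between 975 and 1329 CPM, whereas *ASGR1* and *FOXA1* fell (log2 fold changes of -0.82 and -0.45). Of 5 epithelial markers, *KRT8* and *KRT18* fell (summed level of 1756 and 1795 CPM in control and 1373 and 1315 CPM in sgUSP22), and *CDH1* and *KRT19* were listed at 0. Of 7 mesenchymal markers, 6 were tested, 2 rose and 2 fell. By the edgeR test given below, 26.8% of all tested genes were higher and 25.8% lower. The summed level of the 7 markers was 1699 to 1713 CPM in control and 1631 to 1651 CPM in sgUSP22. *VIM*, the most abundant of them, fell from 1073 to 818 CPM (log2 fold change of -0.39), and *PDGFRB* fell too (-0.98). *COL3A1* was at 503 CPM in control and 573 CPM in sgUSP22, and *LUM* rose from 65.1 to 185 CPM (1.504). The changes of *LUM* and *PDGFRB* were larger than any among the 29 genes. All 7 blood and endothelial markers had at most 25 counts in every library. The part of these marker levels in the results below was not tested, and in bulk RNA a change in the mix of cells cannot be told apart from a change within cells.

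Promoter sequence from RefSeq (GRCh38.p14) is given for 5 genes on which the results below turn, chosen after their values were seen, since SREBP acts at promoters of this pathway. Each line gives the 250 bases before the start, written 5′ to 3′ on the strand of the gene, with matches to 3 motifs in capitals. The motifs were a sterol regulatory element, TCACNCCAC, the CCAAT box bound by NF-Y, a usual partner of SREBP, and the E-box CACGTG, each read on both strands.
SREBF2 (chr22:41832855-41833104, plus strand): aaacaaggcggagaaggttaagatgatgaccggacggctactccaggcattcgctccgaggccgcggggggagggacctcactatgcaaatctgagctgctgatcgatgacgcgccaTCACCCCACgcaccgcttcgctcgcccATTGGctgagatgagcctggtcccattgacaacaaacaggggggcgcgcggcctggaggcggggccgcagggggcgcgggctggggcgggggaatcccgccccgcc
LSS (chr21:46228775-46229024, minus strand): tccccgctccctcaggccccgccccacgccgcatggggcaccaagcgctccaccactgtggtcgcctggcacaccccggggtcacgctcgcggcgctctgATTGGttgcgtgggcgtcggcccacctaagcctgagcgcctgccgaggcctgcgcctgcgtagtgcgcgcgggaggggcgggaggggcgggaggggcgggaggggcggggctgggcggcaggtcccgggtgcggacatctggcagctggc
STARD4 (chr5:111512536-111512785, minus strand): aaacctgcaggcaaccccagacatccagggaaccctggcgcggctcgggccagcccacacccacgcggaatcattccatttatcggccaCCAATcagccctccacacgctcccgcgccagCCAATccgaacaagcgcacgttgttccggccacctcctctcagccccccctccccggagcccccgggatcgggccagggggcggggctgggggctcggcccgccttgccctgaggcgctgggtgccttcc
INSIG1 (chr7:155297628-155297877, plus strand): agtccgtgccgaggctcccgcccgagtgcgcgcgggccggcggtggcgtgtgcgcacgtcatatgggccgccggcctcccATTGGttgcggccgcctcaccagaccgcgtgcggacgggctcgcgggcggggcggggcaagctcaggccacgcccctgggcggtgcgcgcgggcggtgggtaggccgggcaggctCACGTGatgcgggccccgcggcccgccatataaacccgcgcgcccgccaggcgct
MYLIP (chr6:16128836-16129085, plus strand): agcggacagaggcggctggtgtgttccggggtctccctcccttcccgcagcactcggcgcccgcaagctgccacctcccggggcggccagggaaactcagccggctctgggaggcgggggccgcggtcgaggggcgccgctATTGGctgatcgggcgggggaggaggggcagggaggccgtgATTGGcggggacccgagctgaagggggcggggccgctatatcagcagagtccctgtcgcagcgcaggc
Among the 26 genes of the pathway with such a window, *SREBF2* was the only one with the letters TCACNCCAC, which begin 133 bases before its start, followed by a reversed CCAAT box. This sequence was present in 1.09% of all 27305 genes with a window. A CCAAT box stood in 19 of the 26 genes (73.1%), against 37.0% of all genes and 41.0% of the tested genes, and the E-box in 3 (11.5%, against 11.2% of the tested genes), which were *INSIG1*, *SC5D* and *SCAP*. The 19 genes with a CCAAT box had a median log2 fold change of 0.20 and the 7 without it 0.30, so the box was found on risers and fallers alike, *INSIG1* and *MYLIP* included. A match is a description of the letters in this window only.

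Levels in sgUSP22 and control were compared with the quasi-likelihood test of edgeR. Every edgeR adjusted p below is from that test, with Benjamini-Hochberg adjustment across the 15150 genes. Most of the pathway moved by less than 1.5-fold. At an adjusted p below 0.05, 17 of the 29 genes (58.6%) were higher in sgUSP22, where 26.8% of all tested genes were, and 4 (13.8%) were lower, where 25.8% of all tested genes were. With a fold change of at least 1.5 as well, 4 genes (13.8%) were higher, against 8.88% of all tested genes, and 2 (6.90%) were lower, a share near the 7.25% of all tested genes. Scaled by library size alone, these counts were 7 higher and 1 lower. That setting moved the median log2 fold change of all tested genes to 0.053, and the shares of all tested genes were not counted under it. The median log2 fold change was 0.20 over the 29 genes and 0.00091 over all tested genes. Abundance moves with these shares, as the median level was 6.44 log2 CPM for the pathway and 4.51 for all tested genes. Of tested genes with a mean of at least 3 log2 CPM, which 28 of the 29 reached, 32.8% were higher and 31.5% lower. The groups did not overlap for 20 genes that were higher and 6 that were lower in sgUSP22, against 38.3% and 37.6% of all tested genes, or 75.9% in either direction.

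**Figure D1:**
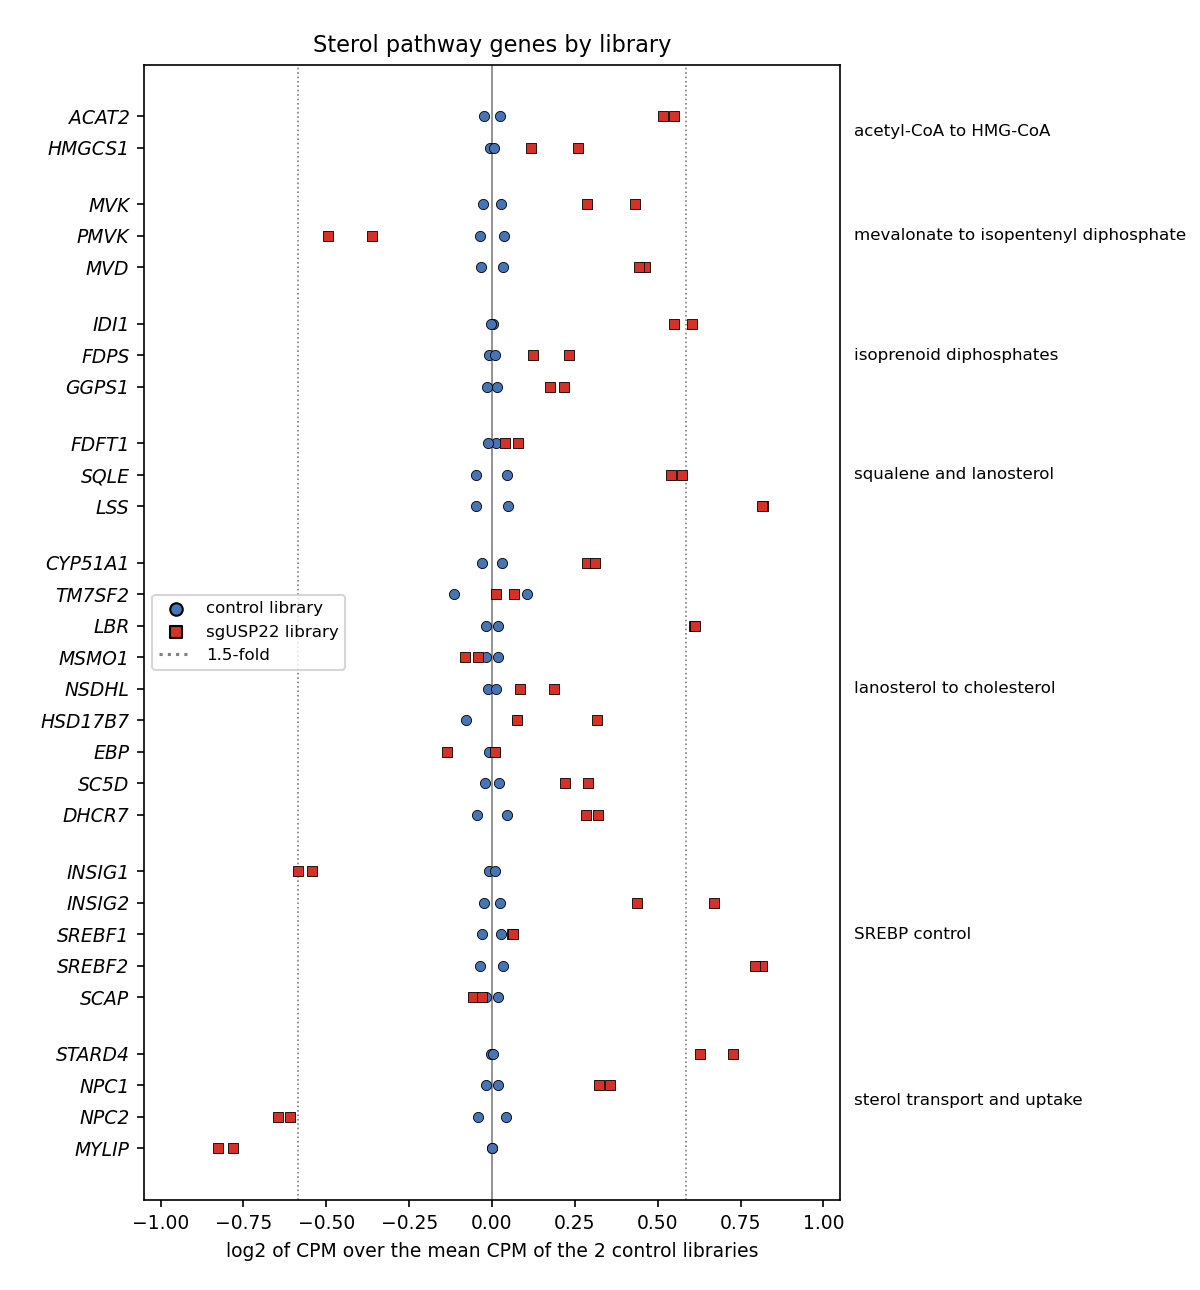
Level of each sterol pathway gene in each library, as the log2 of its CPM over the mean CPM of the 2 control libraries, ordered by step of the pathway. Circles are control and squares sgUSP22 libraries, and dotted lines mark 1.5-fold. Squares lie to the right of both circles for 20 genes and to the left for 6. Of all tested genes, 38.3% were apart in this way as higher and 37.6% as lower. *LSS* and *SREBF2* lie farthest right (log2 fold changes of 0.82 and 0.80) and *MYLIP* farthest left (-0.80).

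**Figure D2:**
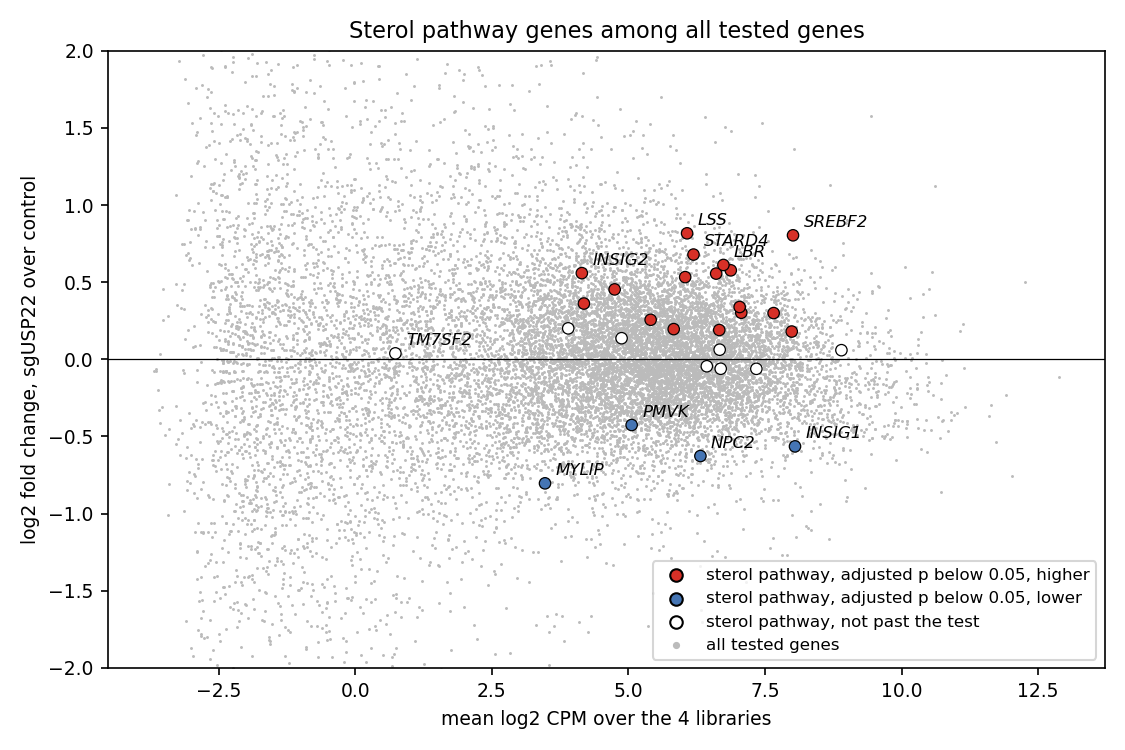
Log2 fold change of sgUSP22 over control against the mean log2 CPM over the 4 libraries, for all 15150 tested genes (grey) and the 29 sterol pathway genes (outlined, filled by direction where the edgeR adjusted p was below 0.05). The vertical axis ends at 2 on either side, which leaves 420 of the tested genes outside, and the pathway genes lie within 0.82 of 0.

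The first steps rose. *ACAT2*, the cytosolic thiolase that joins acetyl-CoA units, had 3390 and 3350 counts in control and 5259 and 5040 in sgUSP22, or 54.6 ± 1.34 and 79.1 ± 1.38 CPM (SD, n = 2). The sgUSP22 libraries were both above both controls, with a log2 fold change of 0.53 (SE 0.046, edgeR adjusted p = 9.34e-06). *HMGCS1*, the synthase that makes HMG-CoA, had 5767 and 5939 counts in control and 6768 and 7325 in sgUSP22. Its rise was small, with a log2 fold change of 0.19 (SE 0.05, edgeR adjusted p = 0.0095), and sgUSP22 replicate 2 stood above replicate 1. Without sgUSP22 replicate 2 it was no longer past the threshold (0.12, edgeR adjusted p = 0.0809), and nor was it once trends with GC content and length were removed (0.0077).

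Of the 3 enzymes that turn mevalonate into isopentenyl diphosphate, the first and last rose and the middle one fell. Of all tested genes, 26.8% were higher and 25.8% lower. *MVK*, mevalonate kinase, had 996 and 982 counts in control and 1422 and 1263 in sgUSP22, a log2 fold change of 0.36 (SE 0.089, edgeR adjusted p = 0.0065). *MVD*, the decarboxylase that ends this stretch, had 1432 and 1398 counts in control and 2076 and 2016 in sgUSP22, a log2 fold change of 0.45 (SE 0.07, edgeR adjusted p = 0.0004). In contrast, *PMVK*, phosphomevalonate kinase, had 2414 and 2351 counts in control and 1803 and 1942 in sgUSP22, and was lower in both sgUSP22 libraries. It fell from 38.6 ± 1.35 to 28.8 ± 1.87 CPM (SD, n = 2), with a log2 fold change of -0.43 (SE 0.069, edgeR adjusted p = 0.000565), and was the single synthesis enzyme of the 20 to fall past the test. Summed over the 3 enzymes, the libraries lay at 79.4 and 75.8 CPM in control and 80.7 and 80.9 CPM in sgUSP22.

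All 3 genes for isoprenoid diphosphates rose, where 26.8% of all tested genes were higher. *IDI1*, the isomerase that makes dimethylallyl diphosphate, had 5870 and 5976 counts in control and 9591 and 9067 in sgUSP22. Its level went from 96 ± 0.338 to 143 ± 3.89 CPM (SD, n = 2), with a log2 fold change of 0.58 (SE 0.039, edgeR adjusted p = 2.08e-06), just under the 1.5-fold threshold. *FDPS*, farnesyl diphosphate synthase, had 14456 and 15006 counts in control and 18449 and 16801 in sgUSP22, with sgUSP22 replicate 1 above replicate 2. The log2 fold change of 0.18 (SE 0.042, edgeR adjusted p = 0.00493) was no longer past the threshold without sgUSP22 replicate 1 (0.11, edgeR adjusted p = 0.058). *GGPS1* makes geranylgeranyl diphosphate for protein prenylation, a branch that leaves the sterol route. It had 3273 and 3278 counts in control and 3936 and 3986 in sgUSP22, a log2 fold change of 0.20 (SE 0.048, edgeR adjusted p = 0.00645), and was not past the threshold without sgUSP22 replicate 2 (0.17, edgeR adjusted p = 0.0638) or with GC and length trends removed (0.10, edgeR adjusted p = 0.0961).

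At the entry to sterols, the steps behaved unequally. *FDFT1*, squalene synthase, was the most abundant of the 20 synthesis enzymes per length of annotated exon, at 92.1 CPM per kb in control and 95.9 in sgUSP22. It had 28748 and 28930 counts in control and 32474 and 30990 in sgUSP22, and the log2 fold change of 0.06 (SE 0.033, edgeR adjusted p = 0.16) did not pass the test, although the groups did not overlap. Scaled by library size alone it passed as higher (0.11, edgeR adjusted p = 0.0132). *SQLE*, the epoxidase that oxidises squalene, had 4739 and 5179 counts in control and 7851 and 7537 in sgUSP22, a log2 fold change of 0.56 (SE 0.045, edgeR adjusted p = 6.11e-06). *LSS*, lanosterol synthase, showed the largest rise of the 29 genes. It had 2992 and 3271 counts in control and 5881 and 5764 in sgUSP22, or 50.8 ± 2.38 and 89.4 ± 0.146 CPM (SD, n = 2), with a log2 fold change of 0.82 (SE 0.048, edgeR adjusted p = 8.93e-07), which is 1.76-fold. Within 5 Mb of *LSS* on chromosome 21, 64 other genes were tested, and their median was -0.20, on the other side of 0.

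Past lanosterol, 4 of 9 genes rose, 5 did not pass the test and 0 fell. Of all tested genes, 26.8% were higher and 25.8% lower, or 32.8% and 31.5% of those with a mean of at least 3 log2 CPM. *LBR*, the lamin B receptor, is both a protein of the inner nuclear membrane and a sterol reductase. It had 5336 and 5319 counts in control and 8662 and 8530 in sgUSP22, nearly identical within each group, and rose from 86.4 ± 1.59 to 132 ± 0.226 CPM (SD, n = 2) with a log2 fold change of 0.61 (SE 0.039, edgeR adjusted p = 1.31e-06). With GC and length trends removed the change was 0.42, under 1.5-fold. *TM7SF2*, the other reductase for the same step, was the least abundant of the 29 genes, with 106 and 93 counts in control and 111 and 105 in sgUSP22, and the groups overlapped (log2 fold change of 0.038, SE 0.24). Per kb of annotated exon, *LBR* exceeded *TM7SF2* by 30.05 and 34.1 times in the control libraries and by 46.6 and 48.5 times in the sgUSP22 libraries.

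Of the other genes of this stretch, *CYP51A1*, the lanosterol demethylase, had 10868 and 11599 counts in control and 14609 and 14582 in sgUSP22, a log2 fold change of 0.30 (SE 0.037, edgeR adjusted p = 0.000103). *DHCR7*, the reductase that ends one branch of the route, had 7127 and 7766 counts in control and 9898 and 9484 in sgUSP22, a log2 fold change of 0.30 (SE 0.043, edgeR adjusted p = 0.000228). *SC5D*, a sterol desaturase, had 2401 and 2386 counts in control and 2973 and 3063 in sgUSP22, a log2 fold change of 0.26 (SE 0.055, edgeR adjusted p = 0.00317), which went to 0.0019 with GC and length trends removed. The abundant oxidase *MSMO1* had 9975 and 10471 counts in control and 10571 and 10113 in sgUSP22 and a log2 fold change of -0.062 (SE 0.037), with both sgUSP22 libraries slightly lower in CPM. *NSDHL*, *HSD17B7* and *EBP*, a dehydrogenase, a ketoreductase and an isomerase, had log2 fold changes of 0.14, 0.20 and -0.061 (SE 0.069, 0.11 and 0.050). With each library left out, *NSDHL* ranged from 0.072 (without sgUSP22 replicate 1) to 0.19 and *HSD17B7* from 0.073 (without sgUSP22 replicate 2) to 0.30 (without sgUSP22 replicate 1), none past the test. In *HSD17B7* and *EBP* the groups overlapped, and without sgUSP22 replicate 1 *EBP* passed the threshold as lower (-0.15, edgeR adjusted p = 0.0355). With GC and length trends removed, *MSMO1* (-0.21) passed the threshold as lower and *NSDHL* (0.21) as higher, and *NSDHL* also passed with library size alone (0.19).

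Over the 20 enzymes together, 13 were higher, 1 was lower and 6 did not pass the test, where 26.8% of all tested genes were higher and 25.8% lower (32.8% and 31.5% of those with a mean of at least 3 log2 CPM), with a median log2 fold change of 0.23. Their summed level was 1951 and 1962 CPM in the control libraries and 2319 and 2275 CPM in the sgUSP22 libraries, a ratio of means of 1.17.

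The control genes moved in opposite directions. *SREBF2* encodes SREBP-2, the main activator of the cholesterol genes. It had 11633 and 12490 counts in control and 22602 and 21855 in sgUSP22, or 196 ± 6.66 and 341 ± 3.82 CPM (SD, n = 2). Both sgUSP22 libraries lay far above both controls, with a log2 fold change of 0.80 (SE 0.037, edgeR adjusted p = 2.16e-07), and its p-value ranked 122 of the 15150. The rise of 1.75-fold was past a test against 1.5-fold (edgeR adjusted p = 0.000608), as was that of *LSS* (edgeR adjusted p = 0.00227), and no other gene of the 29 was. *SREBF1*, which encodes SREBP-1 and serves fatty acid synthesis more than sterols, had 5956 and 6340 counts in control and 6833 and 6721 in sgUSP22, a log2 fold change of 0.06 (SE 0.04, edgeR adjusted p = 0.228), which did not pass the test. It passed as higher with GC and length trends removed (0.19, edgeR adjusted p = 0.00203) and with library size alone (0.11, edgeR adjusted p = 0.0358). Per kb of annotated exon, *SREBF2* exceeded *SREBF1* by 1.997 and 2.014 times in control and by 3.38 and 3.32 times in sgUSP22. The difference of the log2 ratio was 0.74 (two-sided exact permutation p = 0.333, the smallest that 2 libraries against 2 allow).

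*INSIG1* and *INSIG2* encode the proteins that retain SCAP and SREBP, and *INSIG1* is itself a well known SREBP target. *INSIG1* had 19504 and 20233 counts in control and 14112 and 14255 in sgUSP22, and both sgUSP22 libraries were lower. It fell from 322 ± 3.15 to 218 ± 4.29 CPM (SD, n = 2), with a log2 fold change of -0.56 (SE 0.035, edgeR adjusted p = 1.12e-06), just under 1.5-fold. *INSIG2* had 876 and 926 counts in control and 1526 and 1278 in sgUSP22. Both sgUSP22 libraries were higher, replicate 1 more than replicate 2, with a log2 fold change of 0.56 (SE 0.098, edgeR adjusted p = 0.000928). Per kb of annotated exon *INSIG1* exceeded *INSIG2* by 24.1 and 23.6 times in control and by 10.0 and 12.1 times in sgUSP22 (two-sided exact permutation p = 0.333, again the smallest possible), so *INSIG1* remained the more abundant transcript in every library. *SCAP* had 5289 and 5551 counts in control and 5543 and 5549 in sgUSP22 and a log2 fold change of -0.045 (SE 0.041), which did not pass the test and whose sign changed with library size alone (0.0071) and with GC and length trends removed (0.084).

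**Figure D3:**
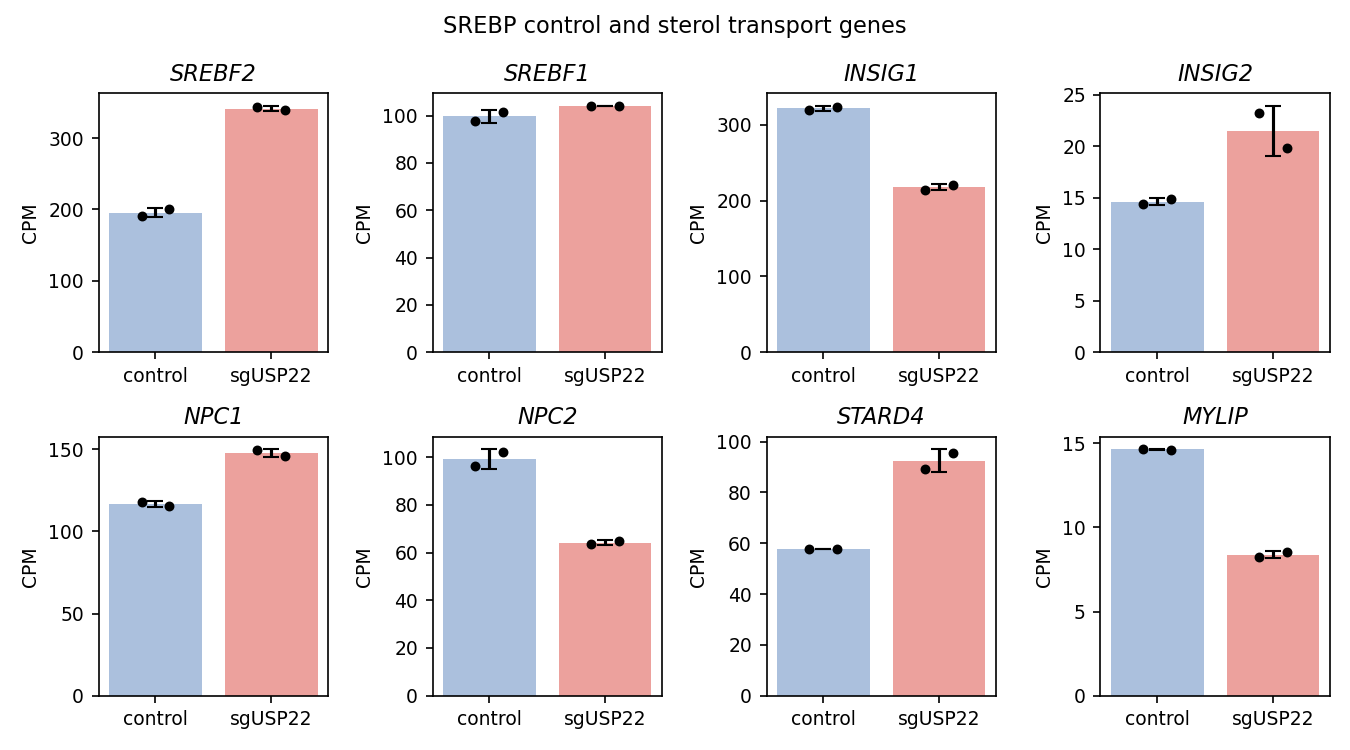
CPM of 8 genes of SREBP control and sterol transport, with bars for the mean of the 2 libraries of a group, error bars for the SD and points for single libraries. Bars start at 0, and each panel has its own scale. *SREBF2*, *INSIG2*, *NPC1* and *STARD4* are higher in both sgUSP22 libraries and *INSIG1*, *NPC2* and *MYLIP* lower, while *SREBF1* differs by a log2 fold change of 0.06.

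Transport genes also split. *STARD4*, a soluble carrier that moves cholesterol between membranes, had 3516 and 3607 counts in control and 5865 and 6173 in sgUSP22, or 57.7 ± 0.109 and 92.4 ± 4.51 CPM (SD, n = 2). It rose with a log2 fold change of 0.68 (SE 0.048, edgeR adjusted p = 2.61e-06), and with GC and length trends removed the change was 0.44, which is under 1.5-fold. NPC1 and NPC2 act one after the other to pass cholesterol out of the lysosome, and their transcripts went opposite ways. *NPC1*, the membrane protein, had 7198 and 7194 counts in control and 9809 and 9418 in sgUSP22, a log2 fold change of 0.34 (SE 0.038, edgeR adjusted p = 5.08e-05). *NPC2*, the soluble carrier that hands it sterol, had 5866 and 6369 counts in control and 4167 and 4195 in sgUSP22, and fell from 99.2 ± 4.16 to 64.2 ± 1.11 CPM (SD, n = 2) with a log2 fold change of -0.63 (SE 0.046, edgeR adjusted p = 3.23e-06). Per kb of annotated exon, *NPC1* stood at 0.327 and 0.301 times *NPC2* in control and at 0.627 and 0.598 times in sgUSP22 (two-sided exact permutation p = 0.333, again the smallest possible). *MYLIP*, the ubiquitin ligase also known as IDOL that marks lipoprotein receptors for degradation and is induced by the sterol sensor LXR, showed the largest fall. It had 893 and 913 counts in control and 542 and 550 in sgUSP22, or 14.6 ± 0.00749 and 8.38 ± 0.192 CPM (SD, n = 2), with a log2 fold change of -0.80 (SE 0.098, edgeR adjusted p = 8.98e-05).

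**Figure D4:**
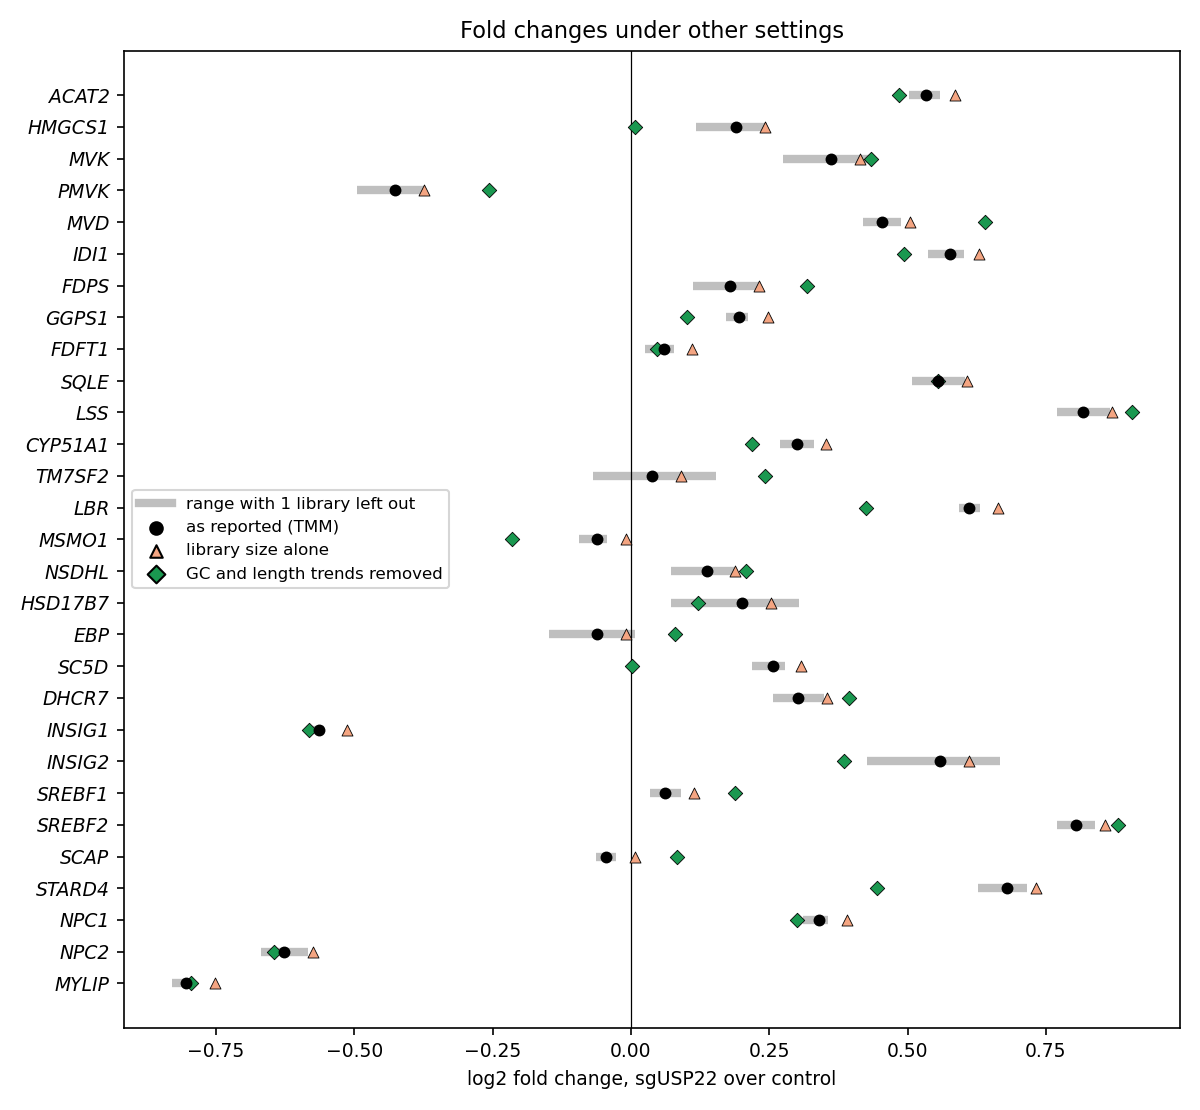
Log2 fold change of sgUSP22 over control for each sterol pathway gene as reported (black circles), with library size alone (triangles), with GC and length trends removed (diamonds) and as the range over the 4 fits that each left out a library (grey bars). Most of the genes called higher, *SREBF2* and *LSS* among them, keep their rise in all of these. *HMGCS1* and *SC5D* fall to 0.0077 and 0.0019 when GC and length trends are removed.

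The 29 genes lie on 18 chromosomes, and the tested genes within 5 Mb of each had median log2 fold changes between -0.20 (*LSS*) and 0.26 (*MSMO1*). *SREBF2* lies on the plus strand of chromosome 22 from 41833105 to 41907306 (hg38), where the 146 neighbours had a median of -0.063. *MYLIP* lies on the plus strand of chromosome 6 from 16129086 to 16148248, and its 29 neighbours had a median of 0.12. *INSIG1* lies on the plus strand of chromosome 7 from 155297776 to 155310235, with a median of -0.010 over 39 neighbours. Strand was not given for the counting, so reads from overlapping genes on the other strand cannot be told apart. *SREBF2-AS1*, which overlaps *SREBF2*, had at most 2.21% of the counts of *SREBF2* in any library, whereas *ACAT2* shares its locus with the more abundant *TCP1* and *SOD2*, *MVK* with *MMAB*, *GGPS1* with *ARID4B*, *CYP51A1* with *AKAP9*, *SREBF1* with *RAI1*, *NPC1* with *RMC1* and *NPC2* with *ISCA2*. *TM7SF2* overlaps *VPS51* on the same strand, and *HSD17B7* has a near copy, *HSD17B7P2*, with 48 to 71 counts, so these levels are less certain.

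Neighbouring parts of the network were followed with further lists, whose counts stand against 26.8% of all tested genes that were higher and 25.8% that were lower. Of 13 tested genes of SREBP processing and sterol-regulated degradation, 6 were higher and 3 lower, the latter near the share of all tested genes, with a median log2 fold change of 0.16. *MBTPS1*, the protease that makes the first cut in SREBP, rose, with a log2 fold change of 0.22 (SE 0.036, edgeR adjusted p = 0.000682). *MBTPS2*, which makes the second, had a log2 fold change of 0.084 (SE 0.045) and did not pass the test. The largest changes of the list were in *ERLIN1*, which helps to degrade sterol-controlled proteins and fell, with a log2 fold change of -0.46 (SE 0.04, edgeR adjusted p = 1.01e-05), and *TMEM97* and *PAQR3*, which rose (0.34 and 0.32).

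Of 7 tested LXR receptor and efflux genes, 2 were higher, about the 26.8% of all tested genes, and 0 lower, against 25.8%. Their median log2 fold change was 0.27. *NR1H2*, which encodes the widely expressed LXR beta, had 1097 and 1134 counts in control and 2527 and 2616 in sgUSP22, and rose from 18.1 ± 0.132 to 39.5 ± 1.46 CPM (SD, n = 2) with a log2 fold change of 1.13 (SE 0.069, edgeR adjusted p = 1.09e-06). The other receptor gene, *NR1H3*, had a log2 fold change of 0.24 (SE 0.11) and did not pass the test. Among sterol exporters, *ABCG5* and *ABCG8* were listed at 0 in all 4 libraries, *ABCA1* had 7 counts in sgUSP22 replicate 2 and 0 elsewhere, and *ABCG1* had a log2 fold change of 0.27 (SE 0.12) that did not pass the test.

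Of 12 tested storage and intracellular transport genes, 5 were higher and 5 lower, where 26.8% and 25.8% of all tested genes were, with a median log2 fold change of -0.11. *SOAT1*, which esterifies cholesterol for storage, rose from 93.7 ± 2.69 to 134 ± 5.89 CPM (SD, n = 2) with a log2 fold change of 0.52 (SE 0.045, edgeR adjusted p = 8.95e-06), and *SOAT2* was listed at 0. *LIPA*, the lysosomal lipase that frees cholesterol from esters, fell, with a log2 fold change of -0.41 (SE 0.046, edgeR adjusted p = 4.98e-05). *OSBPL2* and *VPS13A* rose (0.69 and 0.42) and the sparse *STARD5* fell (-0.81, from 136 and 149 counts to 90 and 81).

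The fatty acid synthesis genes named as SREBP-1 targets had 8 of 13 tested genes higher and 1 lower, against 26.8% and 25.8% of all tested genes, with a median log2 fold change of 0.23. *FASN*, fatty acid synthase, rose from 375 ± 9.4 to 691 ± 8.32 CPM (SD, n = 2), the largest change of the list, with a log2 fold change of 0.88 (SE 0.033, edgeR adjusted p = 5.6e-08). *LPIN1*, *FADS1* and *ELOVL6* also rose (0.71, 0.38 and 0.27). *SCD*, the desaturase and the most abundant of these genes in counts, fell slightly, with a log2 fold change of -0.16 (SE 0.03, edgeR adjusted p = 0.0016).

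**Figure D5:**
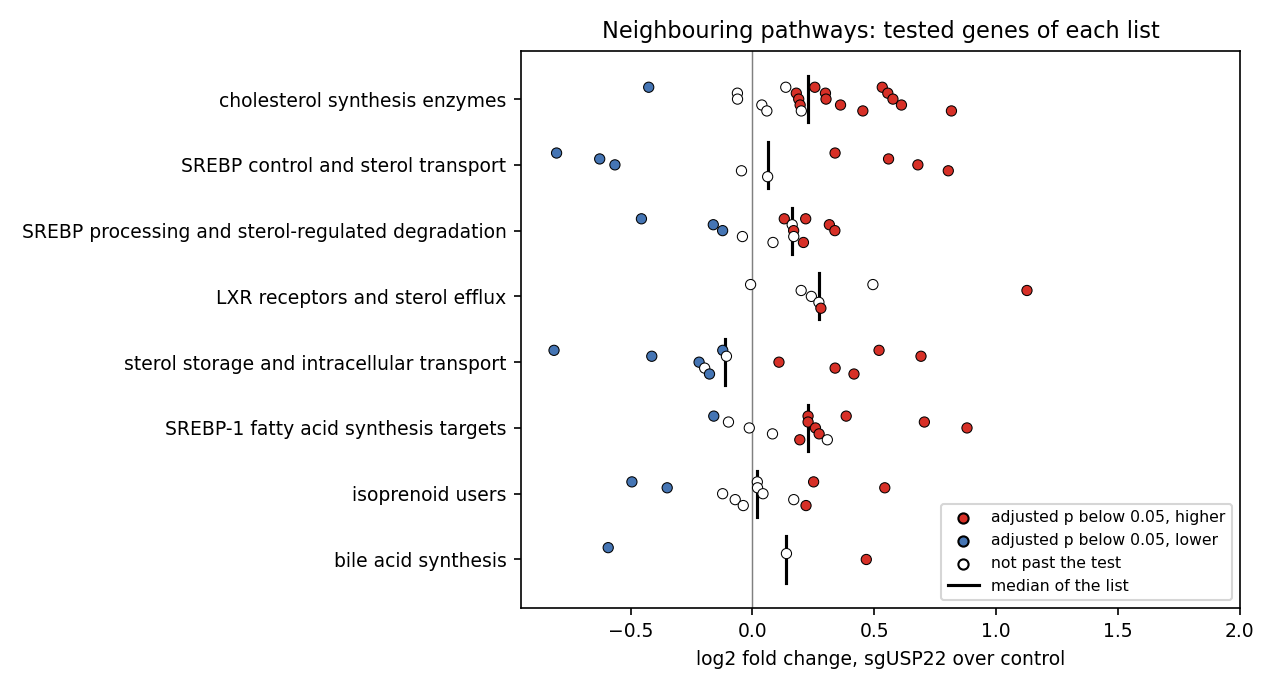
Log2 fold change of sgUSP22 over control for the tested genes of the 20 synthesis enzymes, the 9 control and transport genes and 6 further lists, filled where the edgeR adjusted p was below 0.05 and with a bar at the median of each list. Medians are 0.23 for the synthesis enzymes, 0.23 for fatty acid synthesis, 0.27 for the LXR and efflux genes and 0.16 for SREBP processing. They are -0.11 for storage and transport, 0.020 for isoprenoid users and 0.14 for bile acid synthesis. *NR1H2* lies farthest right at 1.13.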

How the data were processed

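RNA from 4 libraries was sequenced. The authors' alignment used HISAT2 2.2.1 against hg38, and the deposited values are whole-number gene counts from StringTie 2.2.1, not normalized. The annotation and strand setting are not given in the sources used here.

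The counts were fitted in edgeR 4.0.16 under R 4.3.3 by quasi-likelihood on the 2 groups (TMM; filterByExpr, minimum count 10). Standard errors were derived from the fold change and its F statistic. Thresholds were an adjusted p of 0.05 and, where stated, 1.5-fold. Other settings tried were DESeq2 1.42.0, RLE factors, scaling by library size alone, dropping the filter, keeping genes with mean counts of 50 or more, blocking on the replicate number, testing against 1.5-fold, removing lowess trends (span 0.3) with GC content and exon length, and leaving out each library. Positions and lengths were taken from GENCODE 44, which held 25763 of the 28278 symbols. Exon lengths merge all annotated exons of a gene, whichever transcripts were expressed. Comparisons between genes per kb depend on this choice. The test was tried on simulated data.

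The genes and lists were chosen with earlier results of these data known. All 29 pathway genes are described. From each further list, at most 4 genes past the test with the largest change are named. *MBTPS2*, *NR1H3*, the efflux genes, *LIPA*, *SCD*, the marker genes and genes listed at 0 were added for their role after their values were seen. Depth limits the precision of low counts: 3 counts correspond to 0.0457 to 0.0492 CPM, for counting error only. 1 further list is not reported here.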

Additional observations from a re-analysis of the deposited data

How the results depend on the processing

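With DESeq2, with RLE factors, without the filter, with mean counts of 50 or more and with the replicate block, all 29 genes kept their direction and their side of the adjusted p threshold, and the counts stayed at 17 higher and 4 lower. Libraries of the 2 groups share only a number (the deviations of libraries with the same number correlated at 0.042), and the replicate block left 4 genes at least 1.5-fold higher and 2 lower and a log2 fold change of 0.22 for *USP22*. With library size alone, which moved the median of all tested genes to 0.053, 20 genes were higher, since *FDFT1*, *NSDHL* and *SREBF1* then passed, 4 were lower, 7 genes were at least 1.5-fold higher and 1 lower, the median of the 29 was 0.25, and *SCAP* changed sign (0.0071). In the test against 1.5-fold, which is stricter in both directions, 2 genes were higher and 0 lower. *MYLIP* (-0.80) was not past the threshold there (edgeR adjusted p = 0.0831), and nor was *USP22* (0.22). With GC and length trends removed 16 genes were higher and 5 lower, 3 of them at least 1.5-fold higher (*MVD* at 0.64 past it, *LBR* and *STARD4* no longer) and 2 lower, and *EBP* (0.079) and *SCAP* (0.084) changed sign. Under the same setting *PMVK* moved to -0.26 and *FDPS* to 0.32. The shares of all tested genes were not counted under these other settings. The cause of these changes was not tested.

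With each library left out, the lone sample is assumed to vary like the others. The number higher ranged from 15 to 17 and lower from 4 to 5, those at least 1.5-fold higher from 4 to 6 and lower from 1 (without control replicate 2, where *NPC2* was at -0.58) to 3, and the median from 0.19 to 0.27. *USP22* ranged from 0.21 to 0.24, *TM7SF2* from -0.068 to 0.15 and *EBP* from -0.15 to 0.0073. Low depth limits *TM7SF2* most, with 93 to 111 counts.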

Other observations

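Products of the mevalonate route other than sterols were also followed. Of 12 tested genes that use isoprenoids, 3 were higher and 2 lower, near or below the 26.8% and 25.8% of all tested genes, with a median log2 fold change of 0.020. *NUS1*, a subunit of the transferase of dolichol synthesis, rose from 91.1 ± 1.9 to 133 ± 0.328 CPM (SD, n = 2), with a log2 fold change of 0.54 (SE 0.039, edgeR adjusted p = 2.71e-06). *PGGT1B*, a subunit of a protein prenylating enzyme, rose less (0.25). *RABGGTB*, of Rab prenylation, and *PDSS2*, of coenzyme Q synthesis, fell (-0.49 and -0.35). Of 9 genes of bile acid synthesis 3 could be tested, of which *CYP39A1* rose (0.47) and *AMACR*, which also serves branched fatty acids, fell (-0.59). *CYP7A1*, the first enzyme of the main bile acid route, was 1 of 5 genes of that list at 0 in all 4 libraries.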
